A study of Homo sapiens with 30 samples.

Results

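Interferon-stimulated and nucleic acid sensing genes were followed in HT1080, a human fibrosarcoma line, through run-on transcription, hNABP2 occupancy and RNA:DNA hybrids. The set holds 34 genes named by symbol, and all 34 were found among the 26475 genes of the run-on count table. They comprise 5 transcription factors (IRF1, IRF3, IRF7, IRF9, STAT2), 7 sensors, adaptors or nucleic acid enzymes (IFIH1, MAVS, TBK1, EIF2AK2, ADAR, SAMHD1, TREX1), 4 IFIT genes, 4 OAS genes, 4 MX or membrane-bound effectors, 9 ubiquitin-like or other induced genes and the chemokine CXCL10.

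Global run-on sequencing lets isolated nuclei extend transcripts that are already engaged and recovers the labelled RNA. It was done in cells labelled hNABP2 KO, hNABP1 KO and WT, in a reaction with added nucleotides (with NTP) or with none added (no NTP), 3 repeats per group and 18 libraries in all. The anti-hNABP2 ChIP-seq has 2 repeats in WT cells, and DRIP-seq, which recovers RNA:DNA hybrids with the S9.6 antibody, has 2 repeats each in hNABP2 KO and WT cells. All cells are HT1080 at passages 10 to 15 with no treatment, so every value is of cells to which no interferon was added. The sources used here do not say how the knockouts were made or whether each is 1 clone. The labels speak of 2 independent experiments beside 3 run-on repeats, so p-values measure the spread between libraries, which may be technical.

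hNABP2 (hSSB1) and hNABP1 (hSSB2) bind single-stranded DNA and act in the SOSS complex. When RNA or DNA is sensed in the wrong place in a cell, MAVS and TBK1 relay the signal to IRF3 and IRF7, which switch on type I interferon. Interferon then acts through STAT2 and IRF9, which take part in binding the interferon-stimulated response element (ISRE) in the promoters of genes such as the IFIT, OAS and MX families. TREX1, SAMHD1 and ADAR limit the nucleic acids that set off this response, and RNA:DNA hybrids are among its known sources.

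The libraries were shallow. They held 5272 to 19581 counts in repeats 1 and 2 and 19247 to 164357 counts in repeat 3, so a limit of 3 counts was worth 569 CPM (counts scaled to 1e6 per library) in the shallowest and 18.3 CPM in the deepest. The run-on counts of the targeted genes did not check the labels: NABP2 had 4, 3 and 15 counts in the libraries labelled hNABP2 KO with NTP against 4, 0 and 8 in WT, and NABP1 had 0, 1 and 18 in those labelled hNABP1 KO against 1, 0 and 19 in WT. The kind of knockout is not known, so a group is called below by its label. Mesenchymal markers, which fit a fibrosarcoma line, had counts for 10 of 10 genes and summed to 0.154% to 4.19% of a library, epithelial markers to 0.0104% to 0.292% (6 of 6 with counts) and leukocyte markers to 0% to 0.0417% (6 of 7 with counts, LYZ at 0).

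Promoter sequences show how the genes differ before any measurement. RefSeq windows of GRCh38.p14, from 250 bases before to 50 bases after each start, were matched for 27 of the 34 genes. The ISRE core, searched as GAAANNGAAA on both strands, stood in the windows of 16 of the 27 genes (59.3%) against 4.38% of 27305 genes and 4.16% of 15843 protein-coding genes. The core of the interferon gamma-activated element GAS, TTCNNNGAA, stood in 7 of the 27 (25.9%) against 9.38% of all genes, and TATAAA in 5 (18.5%) against 14%. The ISRE core was found at IFIH1, EIF2AK2, IFIT1, IFIT3, IFIT5, OAS3, MX1, BST2, RSAD2, ISG15, ISG20, IFI6, IFI27, IFI44, IFI44L and CXCL10. It was not found in the windows of IRF1, IRF9, STAT2, MAVS, TBK1, ADAR, SAMHD1, TREX1, OAS1, IFI35 or XAF1, which says only that these letters are not in those windows.

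The 250 bases before the RefSeq start are shown for 4 genes with an hNABP2 ChIP peak near that start and for 3 classic interferon targets without one, 5′ to 3′ on the gene's strand. Capitals mark the ISRE core in either direction, or, in IRF1, the GAS core. The windows are those of IRF1 (chr5:132490774-132491023, minus strand), ISG20 (chr15:88638766-88639015, plus), TBK1 (chr12:64451870-64452119, plus), IFIH1 (chr2:162318685-162318934, minus), ISG15 (chr1:1013247-1013496, plus), IFIT1 (chr10:89392373-89392622, plus) and IFI6 (chr1:27672193-27672442, minus).
IRF1: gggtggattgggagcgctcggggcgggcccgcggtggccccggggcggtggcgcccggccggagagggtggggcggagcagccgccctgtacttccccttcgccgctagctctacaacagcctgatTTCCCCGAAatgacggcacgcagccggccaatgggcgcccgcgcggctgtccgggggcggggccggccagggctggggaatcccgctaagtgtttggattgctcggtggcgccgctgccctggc
ISG20: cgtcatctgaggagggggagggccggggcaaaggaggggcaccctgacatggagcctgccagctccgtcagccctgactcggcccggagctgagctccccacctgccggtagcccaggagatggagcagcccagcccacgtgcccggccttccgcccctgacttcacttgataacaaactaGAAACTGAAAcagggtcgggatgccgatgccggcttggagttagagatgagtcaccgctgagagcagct
TBK1: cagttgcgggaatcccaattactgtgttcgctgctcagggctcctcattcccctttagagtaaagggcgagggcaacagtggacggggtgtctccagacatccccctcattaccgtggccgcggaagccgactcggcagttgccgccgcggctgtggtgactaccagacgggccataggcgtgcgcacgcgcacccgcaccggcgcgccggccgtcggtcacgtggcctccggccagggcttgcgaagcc
IFIH1: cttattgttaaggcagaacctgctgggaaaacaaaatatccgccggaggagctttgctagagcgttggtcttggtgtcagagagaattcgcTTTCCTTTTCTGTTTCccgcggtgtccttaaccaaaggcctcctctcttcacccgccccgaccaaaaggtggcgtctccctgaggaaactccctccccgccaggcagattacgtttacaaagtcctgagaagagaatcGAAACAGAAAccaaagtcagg
ISG15: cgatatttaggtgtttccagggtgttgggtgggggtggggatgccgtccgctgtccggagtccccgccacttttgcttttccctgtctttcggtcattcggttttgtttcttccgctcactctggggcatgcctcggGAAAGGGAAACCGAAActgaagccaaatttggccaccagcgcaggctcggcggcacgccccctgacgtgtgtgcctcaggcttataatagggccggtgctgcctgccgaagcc
IFIT1: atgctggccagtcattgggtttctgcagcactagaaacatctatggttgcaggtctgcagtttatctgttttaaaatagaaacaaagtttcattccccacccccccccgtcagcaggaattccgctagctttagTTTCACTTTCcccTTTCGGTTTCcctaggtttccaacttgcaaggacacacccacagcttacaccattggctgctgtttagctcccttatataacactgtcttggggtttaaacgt
IFI6: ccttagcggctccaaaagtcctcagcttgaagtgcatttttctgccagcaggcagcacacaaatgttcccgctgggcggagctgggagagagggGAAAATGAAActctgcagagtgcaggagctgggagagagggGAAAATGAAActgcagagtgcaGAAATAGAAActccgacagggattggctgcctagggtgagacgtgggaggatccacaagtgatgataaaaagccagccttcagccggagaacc

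IRF1, itself a transcription factor induced by interferon gamma, carried 1 GAS core at 124 to 116 bases before the start and no ISRE core. ISG20, an exonuclease that degrades RNA, carried 1 ISRE core at 69 to 60 bases. The kinase gene TBK1 carried none of the 3 motifs. IFIH1, which encodes the RNA sensor MDA5, had 3 ISRE cores, of which the pair at 159 to 150 and 153 to 144 bases overlapped. In ISG15, a ubiquitin-like protein, the 2 cores at 113 to 104 and 107 to 98 bases overlapped as well. IFIT1, which binds foreign RNA, had cores at 116 to 107 and 103 to 94 bases, and the small membrane protein gene IFI6 had 3, the first at 156 to 147 bases.

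hNABP2 promoter peaks were no more frequent at the 34 genes than at all genes, and no gene of the set had one in both ChIP repeats. A gene was counted as bound when the deposited annotation named it for a peak within 1 kb of a start. In ChIP repeat 1, with 10055 annotated peaks, 9 of the 34 genes were bound (26.5%): ADAR, EIF2AK2, IRF1, IRF3, ISG15, ISG20, MAVS, TBK1 and USP18. The same rule was met by 30.7% of 23161 genes and by 38.1% of 17896 protein-coding genes, both above the share of the set. In repeat 2, with 2816 annotated peaks, 1 gene was bound (2.94%), IFIH1, against 9.9% of all genes and 12.5% of protein-coding genes. None was bound in both repeats, where 8.45% of all genes and 10.8% of protein-coding genes were. Over both repeats 10 genes had a peak in at least 1 (29.4%), against 32.1% of all genes and 39.9% of protein-coding genes. No test was made of these shares, which rest on 2 libraries.

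By role, 5 of the 7 sensors, adaptors and nucleic acid enzymes had a promoter peak in 1 of the 2 repeats, as did 2 of the 5 transcription factors and 3 of the 9 ubiquitin-like or other induced genes. None of the 4 IFIT genes, the 4 OAS genes, the 4 MX or membrane-bound effectors or CXCL10 had one. In either repeat the same rule was met by 32.1% of all genes and 39.9% of protein-coding genes. The roles were not tested against each other, and each holds too few genes to be set apart from those shares. The 2 sensor-group genes without a peak were SAMHD1, which hydrolyses nucleotides, and TREX1, the main cytosolic DNA exonuclease. IRF7, IRF9 and STAT2 also had none.

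The peak at IRF1 was the strongest by the authors' q value. It lay at chr5:132490147-132491038 (hg38), across the start, with a fold of 4.83 over background and a -log10 q of 39.6, and its fold exceeded that of 89.2% of the promoter peaks of that repeat. Folds and q values are the authors' own values for each peak, and folds are not compared between the 2 lists. The IRF1 peak covers the whole printed window, GAS core included. An intronic peak that the annotation also names for IRF1 (chr5:132495919-132496148) had a fold of 3.45.

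By q value the peak named for ISG15, described further on, came second, followed by ISG20 and TBK1. The ISG20 and TBK1 peaks had folds of 4.06 and 4.04 and -log10 q values of 24.7 and 24.0. The ISG20 peak (chr15:88638813-88639264) reached from 203 bases before the start to 248 bases after it and covered the ISRE core. The TBK1 peak (chr12:64452051-64452552) lay between 69 bases before and 432 bases after the start. With IRF1 and ISG15 these are the 4 genes of the set left at a -log10 q of 10 or more, 11.8% of the set against 20% of all genes.

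The other peaks of repeat 1 were weaker. The peak at EIF2AK2, the double-stranded RNA kinase PKR, had a fold of 2.68 and a -log10 q of 5.62. At ADAR, which edits adenosines in double-stranded RNA, the fold was 2.58 and the -log10 q 5.25. MAVS, the mitochondrial adaptor of the RNA sensors, had a fold of 2.24 with a -log10 q of 5.57. Each of these 3 folds exceeded those of fewer than 1 in 3 of the promoter peaks of the repeat (26.7%, 21.6% and 8.05%). USP18, a protease that removes ISG15 from proteins, had a peak of fold 2.89 that ended 12 bases before the start, and a near-identical gene copy, USP41, may share its reads. The IRF3 peak, of fold 2.87, lay inside the gene, 992 to 1320 bases from its outer end. It thus falls within 1 kb of the RefSeq end only just, while the deposited distance to the annotation's own start was 0. IRF3 overlaps BCL2L12, and the 2 genes cannot be told apart there.

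**Figure D1:**
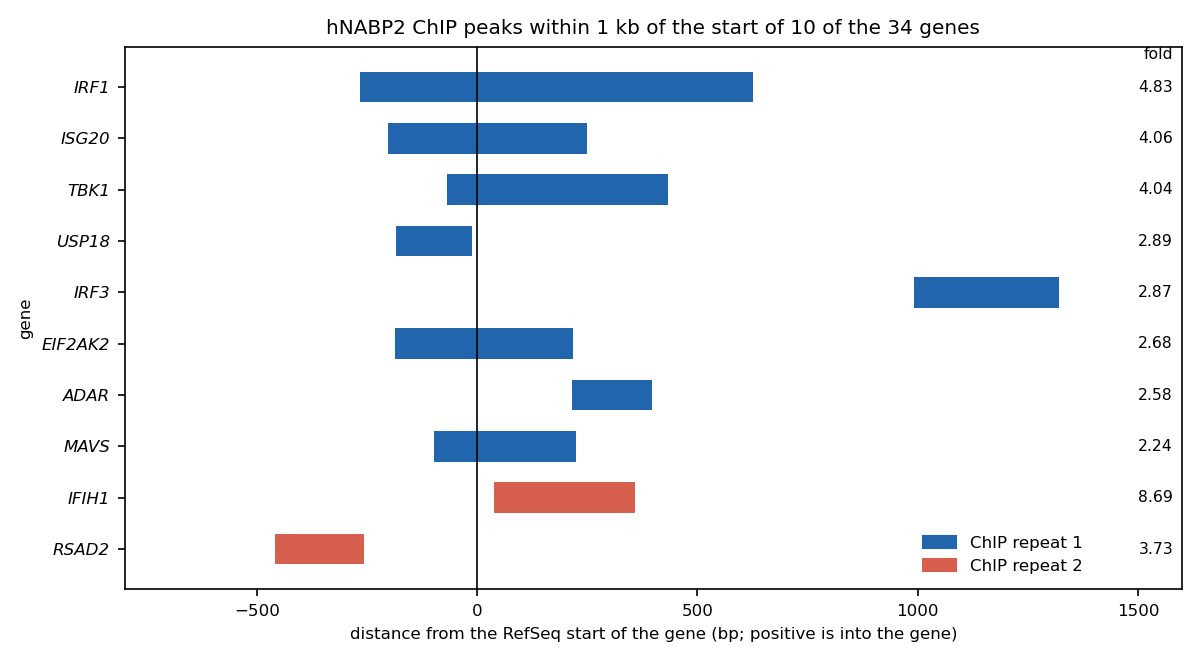
Position of each anti-hNABP2 ChIP peak within 1 kb of the RefSeq start of a gene, in bp from that start with positive values into the gene; bars span the peak, colours give the ChIP repeat and the number at the right is the authors' fold. The 8 peaks of repeat 1 range in fold from 2.24 at MAVS to 4.83 at IRF1, and the 2 peaks of repeat 2 lie at IFIH1 and RSAD2.

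The single peak of repeat 2 in the set, at IFIH1 (chr2:162318327-162318645), had a fold of 8.69 and a -log10 q of 8.93. It lay 39 to 357 bases after the start, downstream of all 3 ISRE cores. Its q exceeded that of 88.1% of the promoter peaks of repeat 2, yet repeat 1, with more peaks, had none at this gene. An end of another gene, GCA, lies 79 bases from the IFIH1 start, so the peak may belong to either. Counting any peak within 1 kb of a gene's own RefSeq start, whatever gene was named, added RSAD2, the antiviral enzyme viperin, in repeat 2 and removed ISG15 in repeat 1. That gave 8 genes in repeat 1 (23.5%, against 30.3% of all genes and 41.9% of protein-coding genes), 2 in repeat 2 (5.88%, against 9.23% and 12.9%) and none in both (8.32% and 11.6%). In either repeat it gave 10 genes, 29.4% of the set, against 31.2% of all genes and 43.2% of protein-coding genes. The RSAD2 peak was named for the neighbouring gene CMPK2, had a -log10 q of 1.4 and lay 257 bases before the start.

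ISG15 counted as bound only through the start that the deposited annotation used for it, at distances of -183 and 484 bases. Its 2 peaks, at chr1:1000541-1000955 (fold 3.78, -log10 q 37.6) and chr1:1001629-1002033 (fold 2.18, -log10 q 4.6), lay 12542 and 11464 bases from its RefSeq start, and the nearest gene was HES4. The printed ISG15 promoter with its overlapping ISRE cores thus had no hNABP2 peak. The second of these positions also held a DRIP peak of hNABP2 KO repeat 2 (chr1:1001642-1002049, fold 4.6, -log10 q 2.4) and a run-on peak of hNABP1 KO repeat 3 with NTP.

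Bound promoters of the set had a higher median content of G and C bases than unbound ones, as bound promoters of protein-coding genes did at large. The 8 matched genes with a peak within 1 kb of their start had a median of 66.2% G and C bases and 27.2 CG dinucleotides in the 300-base window. The 19 without one had medians of 53.0% and 5. Over protein-coding genes the medians were 67.5% and 29 for the 6840 with a peak and 58.0% and 13 for the 9003 without, and 62.3% and 21.5 for all. These medians are a description, and no test was made of them. Bound genes covered 50.1% to 73.7% G and C and unbound genes 36.8% to 66.3%, so the ranges overlap. The ISRE core stood in 4 of the 8 bound and 12 of the 19 unbound windows. Base composition can also change how well a fragment is amplified and sequenced, and its part in the peak calls was not tested.

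**Figure D2:**
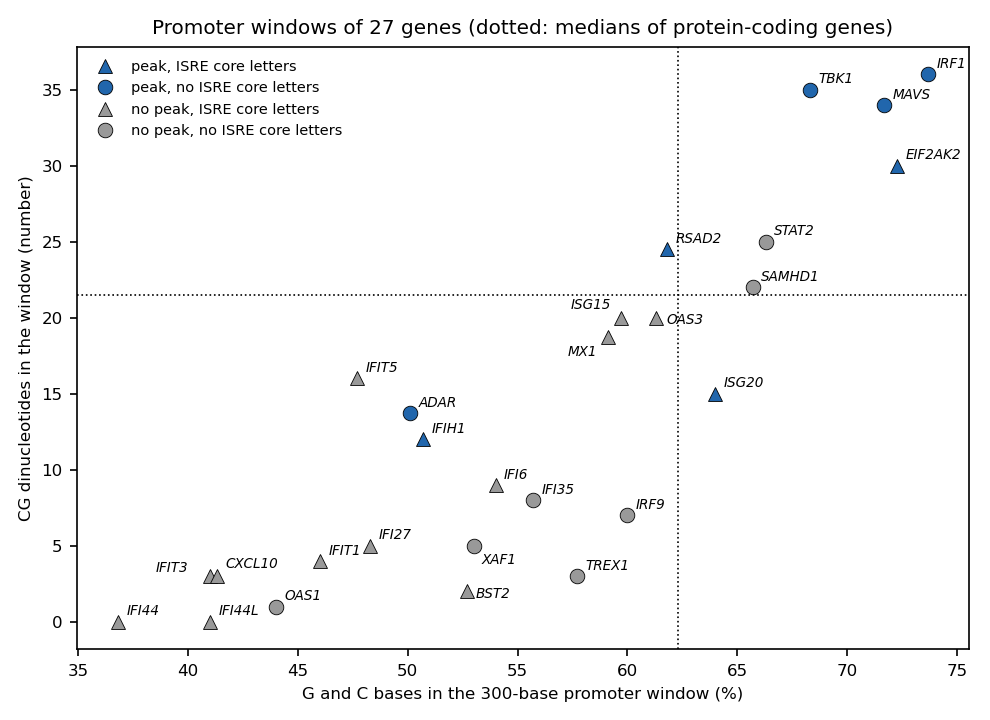
CG dinucleotides (number) against G and C bases (%) in the 300-base promoter window of the 27 matched genes; blue marks an hNABP2 peak within 1 kb of the start, grey none, triangles an ISRE core, and dotted lines the medians of protein-coding genes. MAVS, TBK1, IRF1 and EIF2AK2 stand at the upper right with 30 to 36 CG dinucleotides, while most IFIT, OAS and IFI genes stand at the lower left.

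A wider list of 72 other genes of the pathway, which takes in receptors, JAK kinases, sensors, antigen-processing and antiviral genes, had 26 genes bound in repeat 1 (36.1%), 9 in repeat 2 (12.5%) and 6 in both (8.33%). Among protein-coding genes the shares were 38.1%, 12.5% and 10.8%, so this list lay near the background as well. The 6 were SOCS3, SOCS1, PARP10, IFNGR2, JAK1 and TRAF3. SOCS3 and SOCS1, the feedback inhibitors of JAK signalling, had folds of 9.44 and 9.26 in repeat 1. JAK1, a receptor-bound kinase, and IFNGR2, a chain of the interferon gamma receptor, had folds of 2.79 and 2.96.

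Run-on counts of the set were low in every library. The 34 genes held 877 counts over the 18 libraries, of which 727 (82.9%) came from repeat 3, much as 82.6% of all counts did. Of the 612 values, 426 (69.6%) were 0, and CXCL10 was at 0 in all 18 libraries. The transcription factors held 46.3% of the counts and the sensors, adaptors and nucleic acid enzymes 28.3%, while the IFIT genes held 28 counts in all, the OAS genes 46 and the MX and membrane-bound effectors 37.

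**Figure D3:**
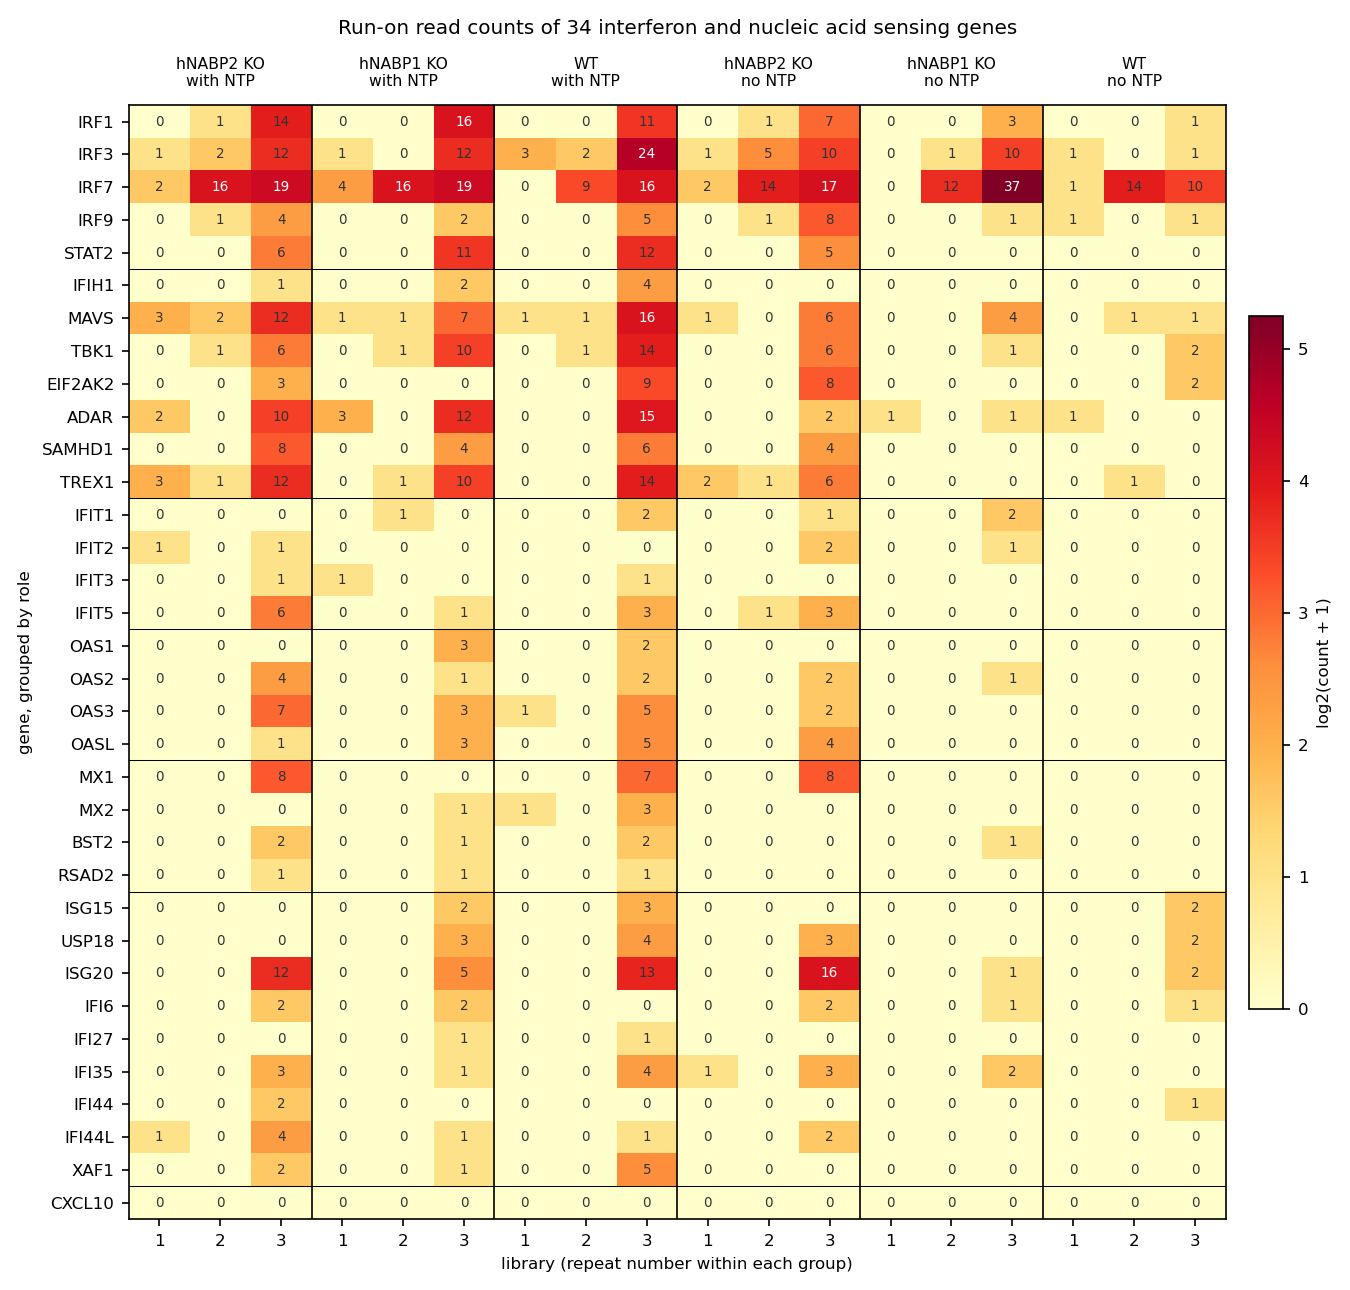
Run-on read counts of the 34 genes (rows, grouped by role with horizontal lines) in the 18 libraries (columns, 3 repeats per group); colour is log2(count + 1) and the printed number is the count. Repeat 3 holds nearly all values above 3, except for IRF7, which also has 9 to 16 counts in every repeat 2 library.

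IRF7, the factor that amplifies the interferon response, had the most counts, 208 or 23.7% of the set. With NTP it had 2, 16 and 19 counts in hNABP2 KO, 4, 16 and 19 in hNABP1 KO and 0, 9 and 16 in WT. Without NTP it had 2, 14 and 17 in hNABP2 KO, 0, 12 and 37 in hNABP1 KO and 1, 14 and 10 in WT. In CPM, repeat 2 spanned 1530 to 2656 over the 6 groups, repeat 1 0 to 361 and repeat 3 97.3 to 1550. The library of hNABP1 KO repeat 3 without NTP, with 1550 CPM, stood with the repeat 2 libraries. Without NTP the levels in repeats 1 to 3 were 190, 1667 and 214 CPM in hNABP2 KO. They were 0, 1883 and 1550 CPM in hNABP1 KO and 108, 2656 and 520 CPM in WT. WT thus lay above both knockouts in repeat 2 and between them in repeats 1 and 3. The mean was 542 CPM with NTP and 1095 without in WT, 881 and 1144 in hNABP1 KO, and 899 and 690 in hNABP2 KO. Within a repeat number, both knockouts with NTP lay above WT each time: the levels in repeats 1 to 3 were 102, 2431 and 164 CPM in hNABP2 KO and 361, 2118 and 164 CPM in hNABP1 KO, against 0, 1530 and 97.3 CPM in WT. Neither difference was called, with log2 fold changes over WT of 0.88 ± 1.25 for hNABP2 KO (SE; adjusted p = 0.9996 by edgeR) and 1.14 ± 1.25 for hNABP1 KO (SE; adjusted p = 0.999).

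The mean level of IRF7 in repeat 2 exceeded that in repeat 3 by 2.18 on the log2(CPM + 1) scale, against a median of -3.97 over 14907 genes. Of these genes 97.9% had a lower value than IRF7. The filter of 10 or more counts and the shallow repeat 2 enter that median, since repeat 3 held 82.6% of all counts. In repeats 1 and 2 IRF7 made up 90 of the set's 150 counts. The genes whose levels over the 18 libraries were most like those of IRF7 were TCTEX1D4 (r = 0.971), DNHD1 (r = 0.953) and LOC439994 (r = 0.934), by Pearson correlation of log2(CPM + 1) given as a description, since these points share the repeats and their depth. IRF7 lies within 333 bases of PHRF1, and the strand setting of the counting is not known.

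The summed share of the set in a library followed IRF7. With NTP it was 0.0664%, 0.365% and 0.141% in hNABP2 KO, 0.0902%, 0.265% and 0.117% in hNABP1 KO, and 0.0501%, 0.221% and 0.128% in WT. The means were 0.191% ± 0.155, 0.157% ± 0.0941 and 0.133% ± 0.0856 (SD, n = 3 each). Repeat 2 was highest in every group but hNABP1 KO without NTP, and the groups overlapped throughout. Paired by repeat number, the share in hNABP2 KO over WT with NTP gave log2 ratios of 0.41, 0.72 and 0.14 in repeats 1 to 3, all above 0, with a mean of 0.42 ± 0.29 (SD, n = 3). The ratios were 0.17, 0.84 and 0.07 without IRF7, from 11, 8 and 144 counts in hNABP2 KO and 6, 4 and 194 in WT. Without NTP and without IRF7, hNABP2 KO also lay above WT in each repeat. Its shares there were 0.0474%, 0.107% and 0.138%, against 0.0325%, 0.0379% and 0.0831% in WT. With IRF7 counted, it lay above WT without NTP in repeats 1 and 3 but not in repeat 2. For hNABP1 KO over WT with NTP, the log2 ratios of the whole set were 0.85, 0.26 and -0.13, with no common sign. The means rest on repeat 2: without it they were 0.104% in hNABP2 KO, 0.104% in hNABP1 KO and 0.0889% in WT. Without IRF7 the means were 0.101% ± 0.0385 in hNABP2 KO, 0.0692% ± 0.0271 in hNABP1 KO and 0.0787% ± 0.0352 in WT. The means without NTP, all genes included, were 0.167% ± 0.104, 0.165% ± 0.135 and 0.161% ± 0.132 in hNABP2 KO, hNABP1 KO and WT.

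**Figure D4:**
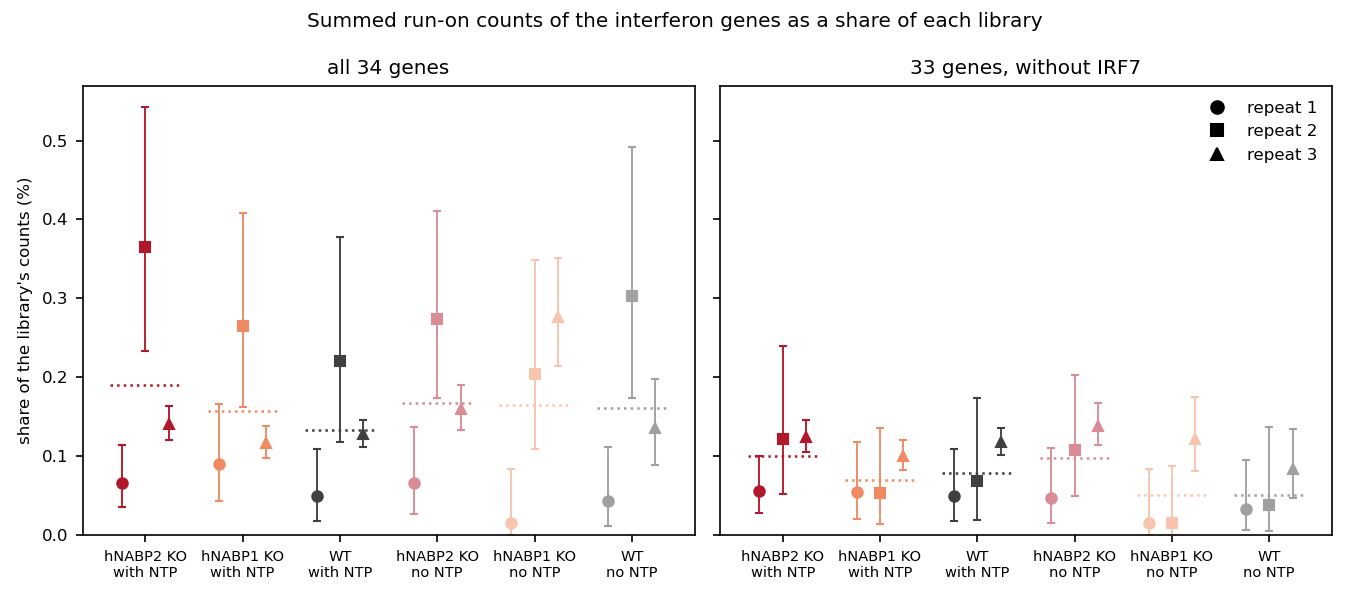
Summed counts of the set as a share of each library (%), for all 34 genes (left) and without IRF7 (right); each marker is a library, its shape the repeat, error bars the exact Clopper-Pearson 95% interval, which covers counting error only, and dotted lines the mean of a group. The shares with NTP run from 0.0501% to 0.365%, and the repeat 2 libraries lose most of their height when IRF7 is left out.

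edgeR's quasi-likelihood F test was applied to hNABP2 KO and WT libraries with NTP, on the 13447 genes with 10 or more counts in the 9 libraries and with adjustment over all of them. Of the 34 genes 15 had enough counts to be tested, and the other 19 could not be assessed. None was called at an adjusted p of 0.05, nor was any other gene (0% called), and 0.305% of all genes had an unadjusted p below 0.05, none of them in the set. DESeq2 called 0 genes in this and the other 5 run-on comparisons. The median log2 fold change of the 15 genes was 0.52, with 11 above 0, against a median of 0.07 over all genes. The standard errors, derived from each log2 fold change and its F value, ran from 1.25 to 1.61 on the log2 scale. All 15 estimates were smaller, between -0.86 and 1.15. The median was -0.69 when hNABP2 KO repeat 3 was left out and 3.18 without WT repeat 3, so it rests on those libraries.

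TREX1 had the largest estimate of this comparison, 1.15 ± 1.47 (SE; adjusted p = 0.9996 by edgeR), and was the only 1 of the 15 whose groups did not overlap in CPM, as 2.07% of all genes tested did not. Its counts were 3, 1 and 12 in hNABP2 KO and 0, 0 and 14 in WT, or 153, 152 and 104 CPM against 0, 0 and 85.2 CPM. The zeros of WT repeats 1 and 2 allow up to 250 and 510 CPM. A difference was therefore not detectable at this depth in those repeats. TREX1 lies inside ATRIP-TREX1 and overlaps ATRIP, so its reads may come from either.

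The same test called no gene between hNABP1 KO and WT libraries with NTP (0% called), and 1.21% of genes had an unadjusted p below 0.05. With the repeat number as a block, since same-numbered libraries deviated together, 16 genes were called (0.119%), none of them in the set. The median log2 fold change of the 15 genes was -0.14, with 7 above 0, against -0.03 over all genes, and it moved between -3.01 and 2.94 on leaving out hNABP1 KO repeat 3 or WT repeat 3. Without the block, EIF2AK2 was the 1 gene of the set with an unadjusted p below 0.05. Its unadjusted p was 0.0493 and its adjusted p 0.999 by edgeR. With the block no gene of the set was below 0.05, the smallest unadjusted p being 0.0558 by edgeR. EIF2AK2 had 0 counts in all 3 hNABP1 KO libraries and 0, 0 and 9 in WT, so the comparison rests on WT repeat 3. In repeat 3 the EIF2AK2 level in WT, 54.8 CPM, was 2.11 times the 26.0 CPM that 3 counts are worth in hNABP1 KO. The counting error of the 9 WT counts is not in this ratio, so it is not a lower bound.

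IRF3, the factor that TBK1 phosphorylates, was the gene of the set whose groups did not overlap in this comparison, as 2.03% of genes did not. It had 1, 0 and 12 counts in hNABP1 KO and 3, 2 and 24 in WT, or 90.2, 0 and 104 CPM against 250, 340 and 146 CPM. All 3 hNABP1 KO libraries thus lay below all 3 WT libraries. The log2 fold change was -0.81 ± 1.33 (SE; adjusted p = 0.999 by edgeR), smaller than its error.

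hNABP2 KO and hNABP1 KO libraries with NTP also gave no call (0%), with 1.84% of genes at an unadjusted p below 0.05. The replicate block called 19 genes (0.141%), none in the set. The median log2 fold change of the 15 genes was 0.52 against 0.12 over all genes. It was 0.49 with 2 genes without counts in a group set at their bound, or at 0 where 3 counts exceeded the level. No gene of the set had groups that did not overlap, as 2.71% of all genes did. MX1, a GTPase that blocks viral replication, had 0, 0 and 8 counts in hNABP2 KO and 0 in all 3 hNABP1 KO libraries. Its unadjusted p was 0.0477 and its adjusted p 0.99996 by edgeR without the block. With the block no gene of the set was below 0.05, the smallest unadjusted p being 0.0520 by edgeR. In repeat 3 the MX1 level in hNABP2 KO, 69.0 CPM, was 2.66 times the 26.0 CPM that 3 counts are worth in hNABP1 KO. The counting error of the 8 counts is not in this ratio, so it is not a lower bound. WT had 0, 0 and 7 counts, so the low library is hNABP1 KO repeat 3, in which EIF2AK2 was at 0 as well.

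**Figure D5:**
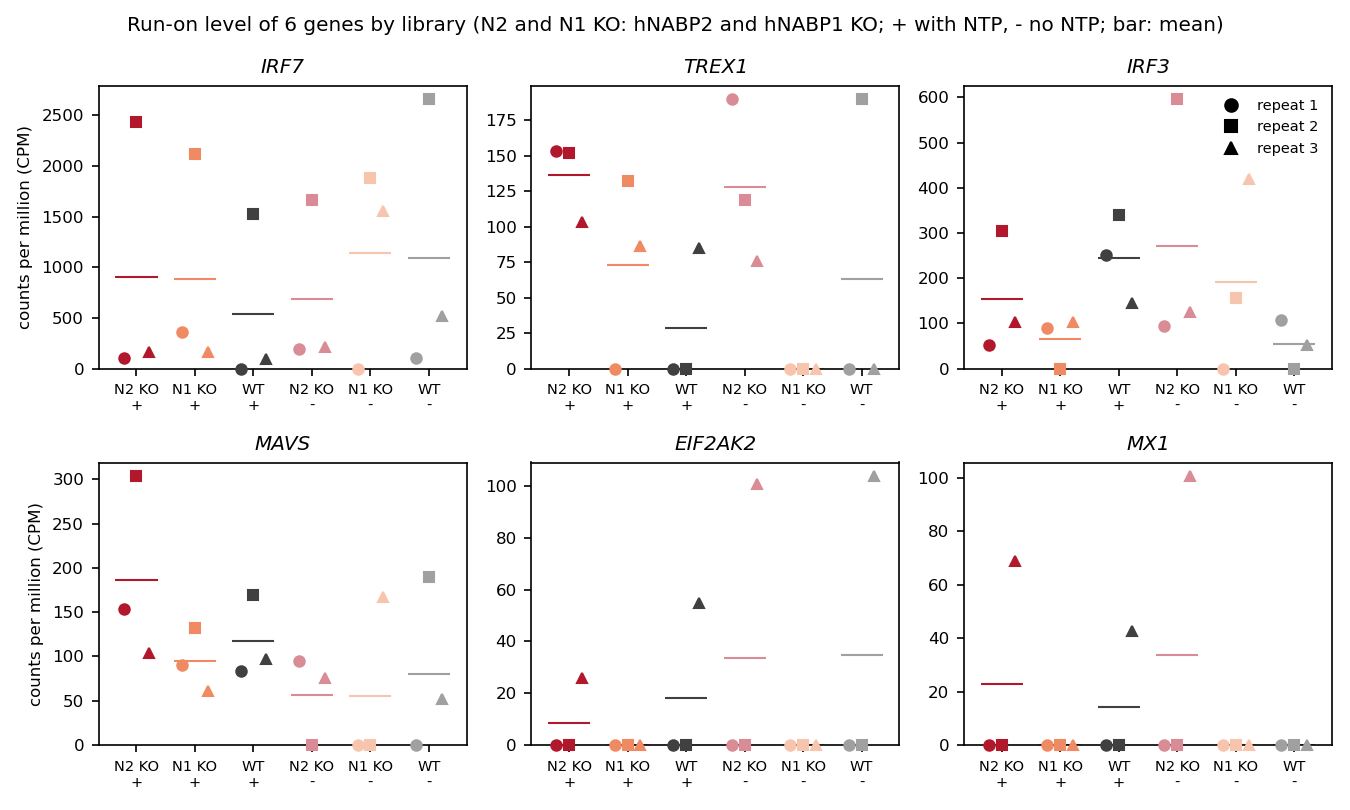
Run-on level in CPM of IRF7, TREX1, IRF3, MAVS, EIF2AK2 and MX1 in the 18 libraries (x axis: group; marker shape: repeat; bar: mean of the group). IRF7 is high in repeat 2 of every group, and EIF2AK2 and MX1 have counts in repeat 3 alone.

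The remaining genes of higher level had few counts in repeats 1 and 2. MAVS had 3, 2 and 12 counts in hNABP2 KO with NTP, 1, 1 and 7 in hNABP1 KO and 1, 1 and 16 in WT. ADAR had 2, 0 and 10, then 3, 0 and 12, and 0, 0 and 15 in the same order, and TBK1 had 0, 1 and 6, then 0, 1 and 10, and 0, 1 and 14. In each of these genes the 3 genotypes overlapped, although MAVS was higher in hNABP2 KO than in WT within each repeat number (153, 304 and 104 CPM against 83.5, 170 and 97.3 CPM). IRF1 had 0, 1 and 14 counts in hNABP2 KO with NTP, 0, 0 and 16 in hNABP1 KO and 0, 0 and 11 in WT. STAT2, the partner of IRF9 in the ISRE-binding complex, had 0, 0 and 6, then 0, 0 and 11, and 0, 0 and 12. ISG20 had 0, 0 and 12 counts in hNABP2 KO, 0, 0 and 5 in hNABP1 KO and 0, 0 and 13 in WT. For these 3 genes repeat 3 carried nearly all counts, so a spread between repeats could not be measured. IRF9 had 0, 1 and 4 counts in hNABP2 KO, 0, 0 and 2 in hNABP1 KO and 0, 0 and 5 in WT, and IFI35 had 0, 0 and 3, then 0, 0 and 1, and 0, 0 and 4.

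Run-on with NTP measures extension by engaged polymerase, and the libraries without NTP give its background. The 2 conditions were compared within each genotype on 14907 genes with 10 or more counts over 18 libraries, 19 of them in the set. None of the 19 was called in any genotype, nor was any gene (0% in each), while 2.41% (hNABP2 KO), 6.22% (hNABP1 KO) and 1.09% (WT) of genes had an unadjusted p below 0.05. With the replicate block 1 gene was called in hNABP1 KO (0.00671%), which is not in the set. Same-numbered libraries did not all deviate together there. The median log2 fold change with NTP over no NTP was -0.20 for the 19 genes against 0.17 for all genes in hNABP2 KO, 0.86 against 1.70 in hNABP1 KO, and 1.16 against 0.93 in WT. In hNABP1 KO 7 of the 19 genes, and in WT 8, had counts with NTP and none without. The 3-count limit in repeat 3 without NTP, 126 CPM in hNABP1 KO and 156 CPM in WT, exceeded the level of each. Each was therefore set at 0, and both medians then became 0. Those medians follow from this rule and do not show that NTP made no difference. EIF2AK2 and MX1 had no count in hNABP1 KO in either condition and could not be assessed there. They entered its medians at 0. Without these 2 genes in hNABP1 KO, the standard errors ran from 1.15 to 2.31. The test thus called none of the 19 genes above its background without NTP. On counts simulated for hNABP2 KO against WT with NTP, with known changes, a fit without the block made no calls. The comparison of NTP conditions was not simulated. The absence of calls does not show that these genes were at background.

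Without the replicate block, TREX1 in hNABP1 KO was the 1 gene of the set with an unadjusted p below 0.05. Here its unadjusted p was 0.0498 and its adjusted p 0.4996 by edgeR. It had 0, 1 and 10 counts with NTP and none in the 3 libraries without. No lower bound can be given, since 3 counts in repeat 3 without NTP are worth 126 CPM, more than the 86.6 CPM with NTP. In hNABP2 KO the same gene had 3, 1 and 12 counts with NTP and 2, 1 and 6 without. MAVS did not overlap between the conditions in hNABP2 KO, with 153, 304 and 104 CPM with NTP and 94.8, 0 and 75.5 without, as 2.25% of genes did not. IRF3 did not overlap in WT, with 250, 340 and 146 CPM with NTP and 108, 0 and 52.0 without, as 2.1% of genes did not, and no gene of the set stood apart in hNABP1 KO, where 2.6% of genes did.

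Without NTP, MAVS had 1, 0 and 6 counts in hNABP2 KO, 0, 0 and 4 in hNABP1 KO and 0, 1 and 1 in WT. EIF2AK2 had 0, 0 and 8, then 0 in all 3, and 0, 0 and 2. MX1 had 0, 0 and 8 counts in hNABP2 KO and 0 in all libraries of hNABP1 KO and WT. ISG20 had 0, 0 and 16, then 0, 0 and 1, and 0, 0 and 2. The deeper library of hNABP2 KO repeat 3, with 79429 counts against 23865 in hNABP1 KO and 19247 in WT, held most of these counts.

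Of the wider pathway list, 54 genes were tested between genotypes and 61 between the NTP conditions, and none was called in any of the 6 comparisons. From 0 to 3 had an unadjusted p below 0.05 per comparison. Their median log2 fold changes were 0.02, -0.07 and 0.06 for hNABP2 KO against WT, hNABP1 KO against WT and hNABP2 KO against hNABP1 KO.

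Run-on peaks, called by the authors per library with NTP, were found in the span of these genes or within 1 kb in 3 of the 9 libraries. In hNABP1 KO repeat 3, which has 9965 peaks, 11 of the 34 genes had one (32.4%) against 37.4% of protein-coding genes: IRF1, STAT2, MAVS, TBK1, ADAR, SAMHD1, IFIT5, OASL, MX1, BST2 and ISG20. MAVS also had a peak in hNABP1 KO repeat 2 (1.98% of protein-coding genes) and IRF9 one in WT repeat 2 (0.978%). The other 6 libraries, with 94 to 518 peaks, had none at these genes. Of protein-coding genes 0.754%, 1.48% and 0.313% had one in hNABP2 KO repeats 1 to 3, 2.21% in hNABP1 KO repeat 1, and 0.352% and 1.44% in WT repeats 1 and 3. The number of genes with a peak thus moved with the number of peaks called in a library. The run-on peaks of hNABP1 KO repeat 3 were highest at MAVS (fold 11.0), STAT2 (9.45), TBK1 (8.26) and IRF1 (8.19).

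Of the 9 genes with an hNABP2 promoter peak in ChIP repeat 1, 6 had a run-on peak of hNABP1 KO repeat 3 over it (66.7%; overlap of 1 base or more): IRF1, MAVS, TBK1, ADAR, ISG20 and, far from its RefSeq start, ISG15. The same held for 55.2% of the 7110 genes with such a promoter peak and 55.6% of the 6818 protein-coding ones, near the share of the set. At MAVS the run-on peak (chr20:3846666-3847118) spanned the hNABP2 peak (chr20:3846737-3847057). The peak at MX1 (chr21:41420180-41420480) ended 78 bases before the gene, which had 0 counts in that library. No DRIP peak of the 2 hNABP2 KO or the 2 WT libraries lay in or within 1 kb of any of the 34 genes, where 0.0391% and 0.436% of protein-coding genes had one in hNABP2 KO and 0.508% and 0.374% in WT. Peaks were thus rare at genes of any kind in these 4 lists, and the absence of one here does not show that hybrids are absent.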

How the data were processed

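The authors deposited raw, unnormalized read counts of 18 run-on libraries by gene symbol. Their peak lists give, per the file headers and layout, for each peak a fold (a ratio over background) and the -log10 of its p and q values. Per the submitters' processing notes, cutadapt 1.18, Bowtie2 2.3.5, SAMtools and MACS2 2.2.1 were used with hg38. The sources used here do not name the counter, its strand setting, the annotation tool or the peak calling controls, so reads of overlapping or antisense genes cannot be told apart. IgG and RNase H libraries were not analysed here.

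The genes and lists were chosen with earlier results of these data known. Counts were fitted with edgeR 4.0.16 (R 4.3.3; TMM, quasi-likelihood F test, 10 or more counts in total, Benjamini-Hochberg adjustment over all genes, threshold 0.05), without a replicate block. The 9 libraries with NTP formed 1 model and all 18 another. Each standard error given is the absolute log2 fold change divided by the square root of its F value. An estimate smaller than its standard error thus restates a small F value. On counts simulated for hNABP2 KO against WT with known changes, the fit without the block made no calls, so an absence of calls does not show that levels were alike. DESeq2 1.42.0, other normalizations, filters and the replicate block were run as alternatives. Same-numbered libraries with NTP deviated together (r = 0.172 to 0.473 for 9 pairs, other pairs -0.249 to 0.0111), as did those of hNABP2 KO (0.202 to 0.509) and WT (0.143 to 0.216) with and without NTP, but not all of hNABP1 KO (-0.0151 to 0.174). The repeat numbers may therefore pair the libraries, except between the hNABP1 KO conditions. Repeat 3 was also the deepest repeat of every group. Pairing and shared depth cannot be told apart here, so pairing is not established. Counts in every library are given for the 12 genes with the highest mean CPM and for any gene with an unadjusted p below 0.05. Limits for counts of 0 use 3 counts and, like the 95% intervals, cover counting error only. Promoter sequences and gene ends come from RefSeq, GRCh38.p14; 7 genes had no promoter entry, and either gene end was used for these. Genes were matched to the counts and peak annotations by symbol, and figures were drawn with matplotlib 3.10.9.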

Additional observations from a re-analysis of the deposited data

Results flagged for a closer look

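IRF3 stood out because, in CPM, NTP went with differences of opposite sign in 2 genotypes in every repeat. With NTP minus no NTP, its level differed by -43.8, -292 and -22.4 CPM in hNABP2 KO repeats 1 to 3, and by 142, 340 and 94.1 CPM in WT. The difference between the genotypes was not tested, and repeats 1 and 2 rest on 0 to 5 counts per library. In hNABP2 KO repeat 1 both conditions had 1 count, so -43.8 CPM comes from library totals alone, 19581 with NTP and 10544 without. Repeat 3 had 12 counts with NTP and 10 without in hNABP2 KO, and 24 and 1 in WT.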

How the results depend on the processing

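No gene of the set was called in any of the 6 run-on comparisons under any setting run. Counts of called genes over the whole table moved in few settings. The replicate block gave 16 genes for hNABP1 KO against WT and 19 for hNABP2 KO against hNABP1 KO. It gave 1 for NTP in hNABP1 KO, whose same-numbered libraries did not all deviate together, and 0 in the other 3. The block together with filterByExpr gave 5 for NTP in hNABP1 KO, and RLE normalization gave 3 there and 1 for NTP in WT. DESeq2 gave 0 in all 6. RLE also shifted the median log2 fold change of all genes for hNABP2 KO against WT to -0.13, against 0.07 with TMM.

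The median log2 fold change of the set is not stable. Leaving out 1 library gave ranges of -0.69 to 3.18 (hNABP2 KO against WT), -3.01 to 2.94 (hNABP1 KO against WT), -1.37 to 3.05 (hNABP2 KO against hNABP1 KO), and for NTP -2.30 to 2.23 in hNABP2 KO, 0 to 2.78 in hNABP1 KO and -0.063 to 2.62 in WT. In the 3 genotype comparisons, the lowest or highest value came from leaving out a repeat 3 library. filterByExpr kept IRF7 alone of the set, so its values and those of the block with filterByExpr are IRF7's: 0.78 and 0.87 (hNABP1 KO against WT), -0.22 and -0.29 (hNABP2 KO against hNABP1 KO), 0.19 and 0.13 (NTP in hNABP2 KO) and -0.90 and -0.94 (NTP in WT). With repeat 3 left out of every group, 1 gene of the set was tested in the 2 genotype comparisons named here. Its values there were 0.72 and -0.043. In the 2 NTP comparisons 3 genes of the set were tested, with medians of 0.23 and 0.64. Without a filter, hNABP2 KO against WT gave 0.19. For NTP in WT, RLE gave 1.85 and DESeq2 0.75.

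The log2 fold change of IRF7 changed sign without passing any threshold. For NTP in hNABP2 KO it was -0.021 with the block and ranged from -1.32 to 0.98 with 1 library left out. For NTP in hNABP1 KO it was 0.021 with RLE, 0.20 with filterByExpr, 0.35 with both block and filterByExpr and 0.39 without repeat 3, with a range of -1.48 to 0.39. The ranges were -0.71 to 2.42 for hNABP2 KO against WT and -1.62 to 0.65 for hNABP2 KO against hNABP1 KO. The cause was not tested.

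The shares of the set stayed within 1 SD of the reported means under all 36 alternatives, but that SD is wide. Leaving out repeat 2 moved the mean by over 1.5 times, to 0.104% in hNABP2 KO and 0.104% in hNABP1 KO with NTP and to 0.0892% in WT without NTP, and leaving out repeat 3 moved it to 0.109% in hNABP1 KO without NTP. Of the ChIP counts, repeat 1 gave 4 genes at a -log10 q of 10 or more and repeat 2 gave 0, while peaks near the genes' own starts gave 2 in repeat 2. The other 14 of 17 ChIP alternatives stayed within 1.5 times, among them a count of 0 in both repeats each time. With 69.6% of values at 0, depth limits every run-on comparison here.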
